A study of Mus musculus with 2 samples.

Results

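Repeat-derived mouse miRNAs were examined in a small RNA table from islet exosomes, namely mmu-miR-3470a and mmu-miR-3470b, and mmu-miR-3473a, mmu-miR-3473b, mmu-miR-3473e and mmu-miR-3473f. They were taken by name, and all 6 were present among the 677 known (miRBase-named) and 1406 predicted entries, 2083 in all. Exosomes are small membrane vesicles released by cells. They were collected by ultracentrifugation from the medium of islets, the hormone-secreting cell clusters of the pancreas, held for 1 week in medium free of serum exosomes. The HFD library came from C57BL/6 mice on a diet with 60% fat and the NCD library from C57BL/6 mice on a control diet with 4% fat. There was 1 library per diet, and the sources used here do not give the number of mice behind each. The 6 entries were chosen by name with their counts and ratios in both libraries known, so their differences are described and not tested, and none has a replicate check.

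Most miRNAs are cut from a hairpin in a longer transcript and guide Argonaute proteins to messenger RNAs through the seed, bases 2 to 8. Some annotated miRNAs instead carry the sequence of a mobile element that is present in very many copies in the genome. In rodents the commonest short elements of this kind are B1, related to the RNA of the signal recognition particle, and B2, related to a transfer RNA. Both have an RNA polymerase III promoter and also lie inside many introns and messenger RNAs. Counting either strand of an element, the sequence of miR-3470b belongs to B1 and that of miR-3473b to the start of B2. No element sequence was compared here, so which strand an entry carries was not examined.

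RefSeq (GRCm38.p6) gave a mature sequence for 5 of the 6 entries, all but miR-3470a. They are shown because their overlap decides which entries can share reads. The seed is in capitals, 5′ to 3′.
miR-3470b: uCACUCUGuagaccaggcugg
miR-3473a: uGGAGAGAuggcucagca
miR-3473b: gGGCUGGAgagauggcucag
miR-3473e: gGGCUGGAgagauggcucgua
miR-3473f: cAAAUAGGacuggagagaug
miR-3473b and miR-3473e had the same seed and shared their first 18 bases, so a read that ended before the last bases belonged to both. No other RefSeq mature miRNA of the mouse table, which holds 1679, had that seed. miR-3473a was the same sequence begun later: its bases 1 to 16 were bases 5 to 20 of miR-3473b, which gave it another seed, shared with miR-882 alone, a miRNA with no entry in the table. miR-3473f began earlier, and its bases 10 to 20 were bases 4 to 14 of miR-3473b. A stretch of 10 bases, uggagagaug, was common to the 4 miR-3473 entries and stood in none of the other RefSeq mature miRNAs. miR-3470b had no longer stretch than 6 bases in common with any of them.

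Copies of these sequences were searched for in the transcripts of 53248 GENCODE M21 genes other than miRNA genes, with exact matches on either strand. Genes with a match were counted, whatever the number of matches in each, and sequence outside transcripts was not searched. The values are therefore not copy numbers. Of the 595 known miRNAs of the table with a RefSeq sequence, 4 matched the transcripts of 20 or more genes, and 3 of these were among the entries described here. miR-3470b ranked first with 1016 genes, 1.91% of those searched. miR-3473b followed with 726 genes and miR-3473a ranked the fourth with 281. The other one was miR-706, with 450 genes, whose sequence is also that of a B1 element. Of the 590 other known miRNAs, 429 matched 0 genes, 132 matched 1 gene and 28 matched between 2 and 8. By matches of the whole sequence, the name repeat-derived thus held for miR-3470b, miR-3473a and miR-3473b. A difference in the last bases is enough to prevent such a match, so its lack does not deny the name to the other entries.

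miR-3473e and miR-3473f stood apart only in the search with whole sequences, since neither was found in any transcript. The first 18 bases of miR-3473e, those it shares with miR-3473b, matched 826 genes. For miR-3473f the best stretch of 16 bases matched 3 genes, against 1071 for miR-3473e, 1173 for miR-3473a and miR-3473b and 1540 for miR-3470b. A stretch of 16 bases in 20 or more genes was found for 4 of the 5 entries with a sequence and for 10 of the 590 other known miRNAs.

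**Figure D1:**
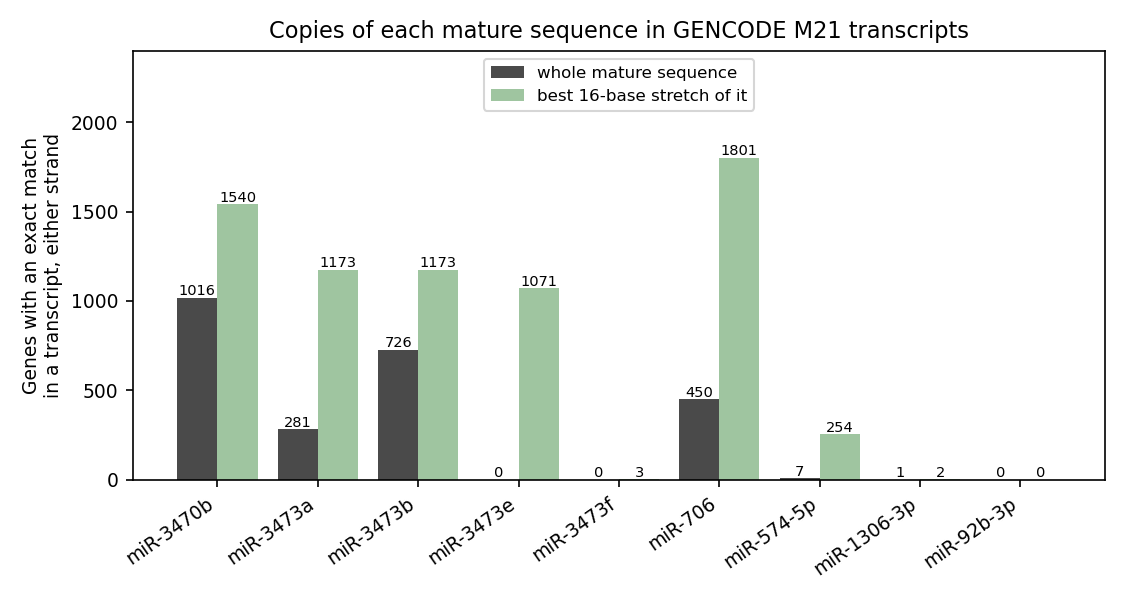
Number of GENCODE M21 genes (linear axis) with an exact match on either strand in a transcript, for the whole mature sequence (dark bars) and for its best stretch of 16 bases (light bars). The 5 entries with a RefSeq sequence are on the left, followed by miR-706 and the 3 known miRNAs nearest in level to miR-3473b. miR-3473e has 0 genes for the whole sequence and 1071 for the stretch.

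The copies lay in both orientations. miR-3473b was found in the sense of the transcript in 344 genes and in the antisense in 390, and miR-3470b in 546 and 497. In protein-coding transcripts, miR-3473b matched within the 3′ untranslated region of 179 genes, the 5′ untranslated region of 11 and the coding sequence of 4. For miR-3470b these counts were 338, 17 and 3. Of the bases of all protein-coding transcripts, 35.5% were 3′ untranslated, 8.21% were 5′ untranslated and 56.3% were coding. Of 32851 RefSeq promoters, 32 (0.0974%) held miR-3473b on either strand, 10 held miR-3470b and 9 held miR-3473a. A read with the whole sequence of miR-3470b, miR-3473a or miR-3473b cannot be placed at 1 locus. For whole miR-3473e and miR-3473f this was not shown, as neither matched a transcript and no genome was searched. The sources used here do not say how reads with several matches were counted. The counts below are therefore those of an entry, not of the hairpin gene whose name it bears.

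The annotated hairpins were scattered over 6 chromosomes (GENCODE M21, GRCm38), and 5 of the 6 lay in introns. Mir3473f (chromosome 1, 106546496 to 106546631, minus strand) lay in an intron of Bcl2, which encodes a protein that blocks apoptosis, on the same strand. Mir3473e (chromosome 5, 31667231 to 31667340, minus strand) lay in an intron of the ribokinase gene Rbks and Mir3473a (chromosome X, 162874918 to 162874995, minus strand) in an intron of Syap1, both on the same strand. Mir3473b (chromosome 10, 41670739 to 41670793, plus strand) and Mir3470b (chromosome 16, 44013852 to 44013977, plus strand) lay opposite to introns of Ccdc162 and Gramd1c. Mir3470a (chromosome 6, 83090311 to 83090387, minus strand) overlapped no other annotated gene.

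The hairpins of RefSeq show how unlike these precursors are. Those of miR-3473b, miR-3473e and miR-3473f are given, with the mature miRNA in capitals.
Mir3473b: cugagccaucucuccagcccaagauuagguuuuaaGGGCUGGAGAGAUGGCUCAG
Mir3473e: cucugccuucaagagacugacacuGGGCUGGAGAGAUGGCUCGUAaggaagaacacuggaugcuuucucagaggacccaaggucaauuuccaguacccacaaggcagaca
Mir3473f: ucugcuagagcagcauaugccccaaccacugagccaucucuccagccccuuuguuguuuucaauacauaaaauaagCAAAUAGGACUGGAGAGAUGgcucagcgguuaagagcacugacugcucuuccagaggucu
Mir3473b was 55 bases long and held the exact reverse complement of its mature miRNA in the other arm. RNAfold paired all 20 bases of the miRNA, at -0.77 kcal/mol per base, and 99.5% of the 432 hairpins of known miRNAs in the table folded as weakly or more weakly. Mir3473e placed nearly the same miRNA in the opposite, 5′ arm, where 12 of its 21 bases paired. Its folding energy was -0.32 kcal/mol per base, and 11.3% of hairpins were as weak or weaker, against a median of -0.43. Mir3473f also held the whole reverse complement of miR-3473b, and bases 4 to 20 of miR-3473b itself, although its annotated mature miRNA starts upstream of them. Mir3473a held bases 3 to 20 of miR-3473b.

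The HFD library summed to 2020831 counts and the NCD library to 2417589, so 1 count was worth 0.495 and 0.414 counts per 1000000 counts (CPM). The islet marker miR-375-3p had 83261 CPM in HFD and 81756 in NCD. The other islet marker, miR-7a-5p, had 3478 CPM in HFD and 2246 in NCD, a ratio of HFD over NCD of 1.55. Markers of other cells were present as well. The hepatocyte miRNA miR-122-5p led both libraries, with 241944 CPM in HFD and 321158 in NCD, a ratio of 0.753. Its other arm, miR-122-3p, not among the markers, went the other way. It had 128 counts in HFD and 34 in NCD, a ratio of 4.50 (3.07 to 6.78). The 3 acinar, 3 striated muscle and 2 leukocyte markers examined were all at least 2-fold higher in HFD when scaled by the total count. Their ratios ran from 2.15 for the acinar miR-216a-5p to 20.8 for the muscle miR-1a-3p, which had 7084 CPM in HFD and 341 in NCD. Of the erythroid markers miR-451a had a ratio of HFD over NCD of 1.87 and miR-486a-5p of 0.741. Other leukocyte miRNAs outside that list had ratios of 2.60 for miR-342-3p, 1.49 for miR-142a-5p, 1.25 for miR-150-5p, 0.978 for miR-223-5p and 0.603 for miR-342-5p. No marker of the list was at 0. The part of these cells in the values below was not tested, and fewer vesicles from a cell type and fewer copies of a miRNA per vesicle cannot be told apart.

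The 6 entries together took 342 counts in HFD and 700 in NCD, or 169 CPM in HFD and 289.5 CPM in NCD. The make-up of this sum differed. The miR-3470 entries gave 24.9% of it in HFD (95% exact binomial interval 20.4 to 29.8) and 2.14% in NCD (1.20 to 3.51). These intervals take each count as a separate read, although miR-3473b and miR-3473e may hold the same reads. The shares would be larger with miR-3473e left out. The miR-3473 entries then held 147 counts in HFD and 380 in NCD, beside 85 and 15 for miR-3470. Both miR-3470 entries had more counts in HFD, and the most abundant miR-3473 entries had fewer.

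Levels differed widely among the entries. miR-3473b had 110 counts in HFD and 322 in NCD. These were 54.4 CPM in HFD (exact Poisson interval 44.7 to 65.6) and 133 CPM in NCD (119 to 149). miR-3473e had 110 counts in HFD and 305 in NCD, which were 54.4 and 126 CPM. Both entries thus stood at the same rank of 187 among known miRNAs in HFD, and at ranks 131 and 133 in NCD. The counts of these 2 entries were equal in HFD, and in NCD the interval of miR-3473e (112 to 141 CPM) overlapped that of miR-3473b. miR-3473f had 35 counts in HFD and 56 in NCD, or 17.3 CPM (12.1 to 24.1) and 23.2 CPM (17.5 to 30.1), and its intervals overlapped.

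miR-3473a was the exception among entries with the shared stretch. It had 2 counts in HFD and 2 in NCD, or 0.990 and 0.827 CPM, although 16 of its 18 bases are those of miR-3473b. It stayed below the minimum of 10 counts in the larger library that was set for a measured entry. At this depth no difference of miR-3473a between the diets was detectable, as its ratio of 1.20 had a counting interval from 0.0867 to 16.5.

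miR-3470a had 47 counts in HFD and 1 in NCD, or 23.3 CPM (17.1 to 30.9) and 0.414 CPM (0.0105 to 2.30). miR-3470b had 38 counts in HFD and 14 in NCD, or 18.8 CPM (13.3 to 25.8) and 5.79 CPM (3.17 to 9.72). The counting intervals of the libraries did not overlap for either. In HFD the levels of miR-3470a, miR-3470b and miR-3473f lay within each other's counting intervals, from 17.3 to 23.3 CPM. In NCD the same 3 entries were ordered miR-3473f, miR-3470b and miR-3470a, with no overlap of their intervals.

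**Figure D2:**
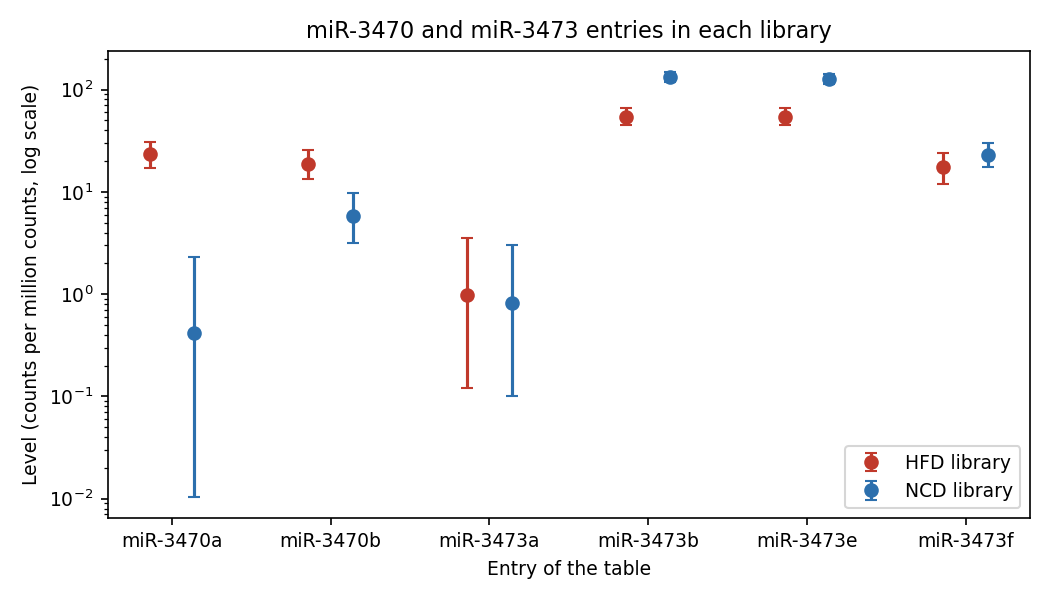
Level of each entry in the HFD library (left point of each pair) and the NCD library (right point), in CPM on a log axis. Points are single libraries and bars are 95% exact Poisson intervals, which cover counting error only. The bars of the libraries overlap for miR-3473a and miR-3473f and are apart for the other 4 entries.

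Ratios of HFD over NCD are given with a 95% exact counting interval, and an entry was called at a log2 ratio, with 1 CPM added to both levels, of at least 1 either way. By that rule 2 of the 5 measured entries were higher, 2 were lower and miR-3473f was within 2-fold. Of all 387 measured known miRNAs, 25.3% were higher in HFD and 9.56% were lower. Their median log2 ratio was 0.33. Since the entries were chosen with this contrast known, nothing is read from the difference between these shares.

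miR-3470a had a ratio of 56.2, with a counting interval from 9.61 to 2268 that reflects the single count in NCD, and a log2 ratio of 4.10. With 10 CPM added in place of 1, its log2 ratio was 1.68. miR-3470b was 3.25-fold higher (1.72 to 6.49), with a log2 ratio of 1.54, and came within 2-fold, at 0.87, with 10 CPM added. The sum of both was 6.78-fold higher in HFD (3.89 to 12.6). As miR-3470a has no sequence here, reads shared with miR-3470b could not be checked, and the interval takes the counts as separate. Both entries rest on fewer than 50 counts in either library.

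miR-3473b was 2.45-fold lower in HFD (1.96 to 3.07) and miR-3473e 2.32-fold lower (1.86 to 2.91), with log2 ratios of -1.28 and -1.20. Both intervals reached below 2-fold. As both entries may hold the same reads, they are not a pair of separate observations. The sum of the 4 miR-3473 entries was 2.23-fold lower (1.93 to 2.58), and 2.16-fold lower (1.78 to 2.63) with miR-3473e left out. miR-3473f had a ratio of 0.748, and its interval from 0.476 to 1.16 held both directions.

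GC content was 65.0% for miR-3473b, 61.9% for miR-3473e, 57.1% for miR-3470b, 55.6% for miR-3473a and 45.0% for miR-3473f, against a median of 50.0% over known miRNAs with a sequence. Over 180 known miRNAs with a sequence and 100 counts or more, the log2 ratio fell by 0.39 for each 10 percentage points of GC content in a linear fit. With that trend removed the log2 ratios of miR-3473b and miR-3473e were -0.63 and -0.67, within 2-fold. That of miR-3470b became 1.89 and that of miR-3473f -0.53. The part of base composition in the differences was not tested.

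**Figure D3:**
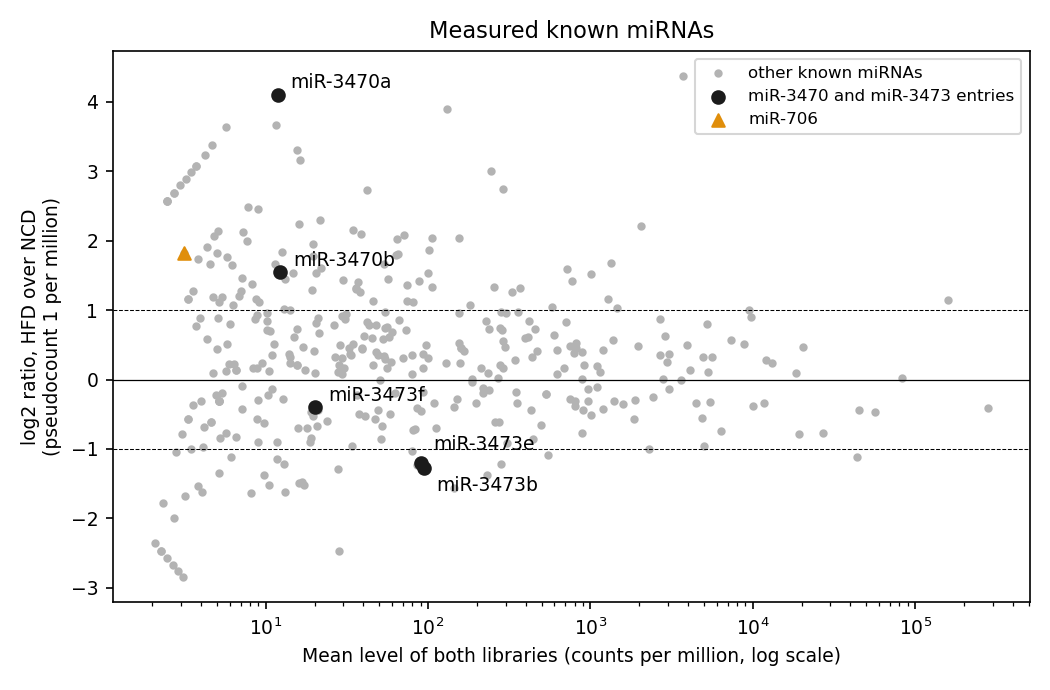
log2 ratio of HFD over NCD (1 CPM added to both) against the mean level of both libraries on a log axis, for the 387 measured known miRNAs. Black points are the 5 measured entries, the triangle is miR-706 and dashed lines mark 2-fold. miR-3470a, at a log2 ratio of 4.10, and miR-3470b lie above the upper line, and miR-3473b and miR-3473e lie together below the lower line.

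The authors' deposited table gives a log2 fold change of 5.49 with an FDR of 1.14e-09 for miR-3470a, and of 1.54 with an FDR of 0.0144 for miR-3470b. In the authors' deposited table the log2 fold changes of miR-3473b and miR-3473e are -1.44 and -1.36, with FDRs of 1.07e-06 and 5.46e-06, and miR-3473f has an FDR of 0.342. edgeR's exact test with the biological coefficient of variation set to 0.1 returned the same p-values for all entries, with differences of at most 6.55e-15. The FDRs of the authors' deposited table thus take the spread between samples as given and hold no measurement of it.

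Other miRNAs of repeat or multicopy origin gave few measured entries. miR-706, the remaining miRNA with copies in 20 or more genes, had 11 counts in HFD and 2 in NCD, a ratio of 6.58 (1.44 to 61.1). It came within 2-fold with 10 CPM added. Its list held only this entry, and was formed on transcripts because no genome sequence was used here. miR-1195, listed as another rodent multicopy miRNA, had 8 counts in HFD and 0 in NCD, below the count minimum. For the rodent Sfmbt2 intron cluster, entries were taken by name alone (miR-297, miR-466, miR-467 and miR-669), and their positions were not checked. Of this list 8 entries were present and 1 was measured. That entry, miR-669c-5p, had 36 counts in HFD and 59 in NCD, a ratio of 0.730 (0.468 to 1.12). The older LINE-2 element gave rise to miR-28, miR-151 and miR-708, of which 5 arms were measured. Of these 1 was higher, 0 were lower and 4 were within 2-fold, with a median log2 ratio of 0.37. They ran from 2.80-fold higher for miR-28a-3p (1.90 to 4.21) to a ratio of 0.612 for miR-151-5p (0.506 to 0.739), and the most abundant, miR-151-3p, had 979 CPM in HFD and 843 in NCD. Neither miR-28a arm was found in a transcript.

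The known miRNAs nearest to miR-3473b in level over the 2 libraries were miR-574-5p, miR-1306-3p and miR-92b-3p, at distances of 0.18, 0.32 and 0.42 on the log2 scale. miR-574-5p had 102 counts in HFD and 290 in NCD, and was 2.38-fold lower (1.89 to 3.01). miR-1306-3p was 2.06-fold lower (1.64 to 2.61) and miR-92b-3p had a ratio of 0.605 (0.485 to 0.753). With 2 libraries this likeness says only that the levels were close.

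**Figure D4:**
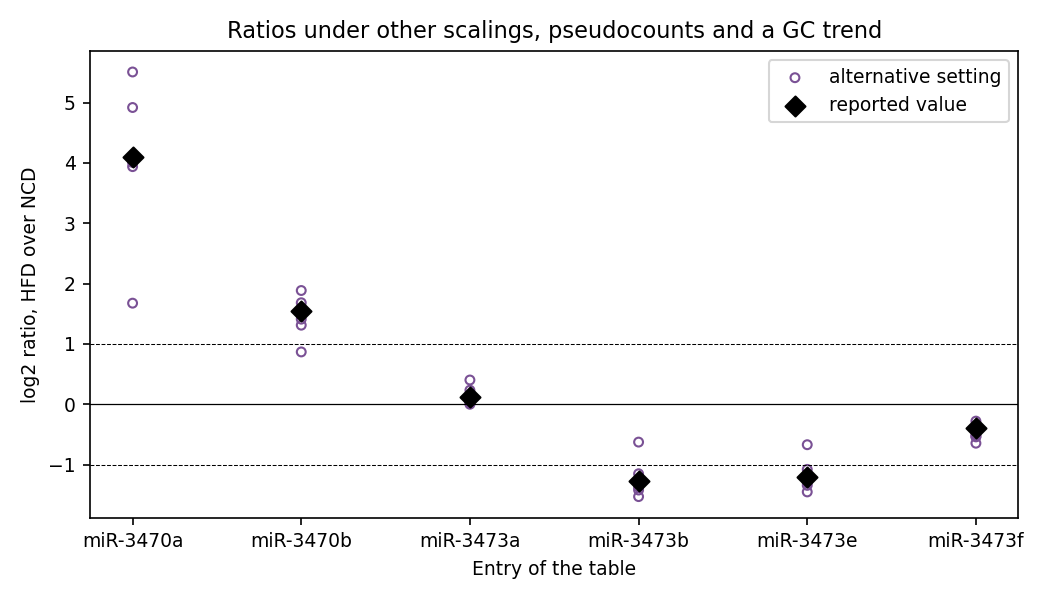
log2 ratio of HFD over NCD of each entry as reported (diamonds) and under the alternative settings (circles), which cover scalings, pseudocounts, count minimums and a linear GC trend. Circles of the count minimums, the merging of equal counts and the deposited TPM equal the reported value, as these cannot change a ratio. Dashed lines mark 2-fold. The values of miR-3470a run from 1.68 to 5.51 and those of miR-3473b from -1.53 to -0.63, and no entry past 2-fold crosses 0.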

How the data were processed

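Small RNA libraries were made from total RNA of exosomes with an NEBNext small RNA kit, per the labels' protocols. The authors deposited 1 table with whole-number counts per miRNA for each library, TPM values, and for the comparison of the libraries a log2 fold change, a p-value and its FDR, per the file headers. The deposited TPM values equal counts per 1000000 counts of the table (CPM), within 4.37e-10. Per the submitters' processing notes the genome was GRCm38. Aligner and miRNA caller are not named in the sources used here.

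CPM were computed from the counts of all 2083 entries. Intervals (95%) were exact Clopper-Pearson for ratios, conditional on the summed counts, and exact Poisson for levels. They cover counting error only, with each count taken as an independent read. Copies made by PCR may count as separate reads, so the intervals may be too narrow even for that. An entry was measured where 1 library or both held 10 counts or more. The 2-fold rule is one of size, as 1 library per group permits no test; the ratio and interval script was checked on simulated data. Entries and lists were chosen with earlier results of these data known. Named miRNAs were all 6 entries, the 3 nearest in level to the most abundant one, and from each list the 2 most abundant measured members and the extremes of the ratio. A list of miRNAs with 20 or more genome matches was planned. GENCODE transcripts took the place of the genome, a choice made after seeing the data. Matches were counted per gene. Sequences came from RefSeq (GRCm38.p6). Tools were Python 3.11.15, scipy 1.17.1, RNAfold 2.7.2, edgeR 4.0.16 (TMM factors and the exact test used to match the deposited values) and DESeq2 1.42.0 (median-of-ratios size factors). Alternatives covered scaling, pseudocount, count minimum, merging of entries with equal counts and a linear GC trend.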

Additional observations from a re-analysis of the deposited data

How the results depend on the processing

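No paired analysis was possible because each diet has 1 library, and no replicate could be left out. Of the 11 other settings, the deposited TPM, the count minimums and the merging of equal counts cannot change the ratio of an entry. Under the remaining scalings, pseudocounts and the GC trend, the 5 entries with a log2 ratio other than near 0 kept their direction. miR-3473a, with 2 counts in each library, had a log2 ratio between 0 and 0.40. miR-3470a gave no value for the GC trend, for lack of a sequence.

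With 10 CPM added, the log2 ratio was 1.68 for miR-3470a and 1.68 for the miR-3470 sum, 1 entry was higher, 53 known miRNAs were higher and 10 lower, and 0 of the repeat-matching list (miR-706) passed 2-fold. With the GC trend removed, miR-3473b stood at -0.63 and miR-3473e at -0.67, so 0 entries were lower. miR-3470b stayed higher, at 1.89. As miR-3470a had no value for lack of a sequence, 1 entry was counted as higher. A GC value was had for 87.0% of known miRNAs with at least 100 counts. With median-of-ratios size factors the miR-3473 sum was -1.41. These factors were 1 for both libraries, so this setting compared the counts with no correction for depth. It moved the median of known miRNAs by -0.26, and TMM factors moved it by -0.15. With no count minimum 170 known miRNAs were higher and 81 lower, and 5 of the Sfmbt2 list and 1 of the other multicopy list passed 2-fold. With a minimum of 100 counts, 40 known miRNAs were higher and 11 lower, and 0 of the LINE-2 list, 0 of the repeat-matching list and 0 higher entries were left, as fewer entries were measured. Depth limits the ratios of miR-3470a, miR-3473a and miR-706, each with at most 2 counts in NCD, as it does those of other entries with few or 0 counts there, such as miR-1195.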

Other observations

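Besides the entries described above, 10 known miRNAs held a stretch of 16 bases found in the transcripts of 20 or more genes, a group formed after the data were seen. Of the 5 measured ones 1 was at least 2-fold higher in HFD, 2 were lower and 2 were within 2-fold. Over all 387 measured known miRNAs 25.3% were higher and 9.56% lower, and with so few members nothing is read from the tally. The higher one was miR-706. The lower ones were miR-574-5p, whose best stretch matched 254 genes, and miR-1895, with 0 counts in HFD and 10 in NCD. miR-5128 had 23 counts in HFD and 34 in NCD, a ratio of 0.809 (counting interval 0.455 to 1.41), and miR-671-5p had 7 counts in HFD and 11 in NCD. Among the unmeasured ones, miR-1195, with a stretch in 1291 genes, had 8 counts in HFD and 0 in NCD. miR-3472, with a stretch in 169 genes, had 0 counts in HFD and 5 in NCD.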
